A study of Mus musculus with 6 samples.

Results

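Histamine, serotonin, leukotrienes and prostaglandin D2 are small mediators of mast cells. Here 10 genes were followed, most of them for the synthesis and storage of these mediators. The genes were taken by symbol from the deposited table of 43629 Ensembl gene IDs, and all 10 were found. Hdc, Slc18a2 and Tph1 stand for the amines, Alox5, Alox5ap and Ltc4s for leukotrienes, and Ptgs1 and Hpgds for prostaglandin D2. The lipid enzymes Cyp11a1 and Alox15 lie outside these routes. All 10 are called mediator genes below. C57BL/6 mice with end-point leukaemia gave the RNA, from marrow cells sorted for c-kit. Every mouse carried the Cbfb-MYH11 knockin, the fusion gene made by the chromosome 16 inversion of human acute myeloid leukaemia. In 3 mice both Gata2 alleles were intact (Gata2+/+, replicates 3, 5 and 6), and in the other 3 one allele carried the change written as f (Gata2+/f, replicates 7, 9 and 11). Gata2 encodes a DNA-binding factor that stem cells, progenitors and mast cells of the blood depend on. What the f allele removes, whether a Cre recombinase was used, and the age and sex of the mice are not given in the sources used here. Each library is 1 mouse, and the comparison asks how expression in these leukaemias differs when Gata2 is reduced.

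Mast cells and basophils make histamine from histidine by histidine decarboxylase (Hdc) and load it into granules through the vesicular monoamine transporter (Slc18a2), which also carries serotonin made from tryptophan. Arachidonic acid released from membranes follows 2 main routes. Along the first, 5-lipoxygenase (Alox5), helped by its activating protein (Alox5ap), makes leukotriene A4, which leukotriene C4 synthase (Ltc4s) joins to glutathione. Along the second, cyclooxygenase 1 (Ptgs1) makes prostaglandin H2, which haematopoietic prostaglandin D synthase (Hpgds) turns into prostaglandin D2. GATA2 is known as a factor that mast cells need for their granule and mediator genes.

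The sequences upstream of the 5 members whose groups did not overlap are shown because these members were lower together. Each is the 250 bases before a RefSeq transcript start on GRCm38.p6, 5′ to 3′ on the strand of the gene. Capitals mark GATA words on either strand. These are AGATAA and its variant AGATAG, and likewise TGATAA with its variant TGATAG. No 2 words overlapped.
Hdc: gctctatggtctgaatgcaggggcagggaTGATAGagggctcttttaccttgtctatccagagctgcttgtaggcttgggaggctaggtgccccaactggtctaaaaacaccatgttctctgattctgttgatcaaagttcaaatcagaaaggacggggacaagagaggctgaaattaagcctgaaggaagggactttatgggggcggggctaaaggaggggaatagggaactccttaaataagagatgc
Slc18a2: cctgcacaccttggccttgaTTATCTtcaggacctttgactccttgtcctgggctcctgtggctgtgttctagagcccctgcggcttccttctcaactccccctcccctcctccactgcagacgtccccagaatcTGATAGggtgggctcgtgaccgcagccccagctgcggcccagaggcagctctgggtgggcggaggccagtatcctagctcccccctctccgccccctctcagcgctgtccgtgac
Tph1, distal start: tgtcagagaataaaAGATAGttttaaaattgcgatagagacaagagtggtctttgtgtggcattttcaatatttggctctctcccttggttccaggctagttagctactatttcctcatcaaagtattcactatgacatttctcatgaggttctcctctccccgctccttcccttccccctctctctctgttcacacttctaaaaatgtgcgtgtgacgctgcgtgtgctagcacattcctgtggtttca
Tph1, proximal start: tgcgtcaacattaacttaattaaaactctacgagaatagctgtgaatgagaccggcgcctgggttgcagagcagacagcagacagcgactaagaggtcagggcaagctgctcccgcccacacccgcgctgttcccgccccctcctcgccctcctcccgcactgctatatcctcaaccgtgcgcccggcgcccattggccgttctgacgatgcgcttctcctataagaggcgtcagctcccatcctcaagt
Alox5: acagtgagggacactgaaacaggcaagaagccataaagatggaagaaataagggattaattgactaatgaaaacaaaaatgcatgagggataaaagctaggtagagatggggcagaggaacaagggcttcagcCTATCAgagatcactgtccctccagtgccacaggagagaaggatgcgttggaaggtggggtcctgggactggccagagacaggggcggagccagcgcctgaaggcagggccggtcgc
Cyp11a1, distal start: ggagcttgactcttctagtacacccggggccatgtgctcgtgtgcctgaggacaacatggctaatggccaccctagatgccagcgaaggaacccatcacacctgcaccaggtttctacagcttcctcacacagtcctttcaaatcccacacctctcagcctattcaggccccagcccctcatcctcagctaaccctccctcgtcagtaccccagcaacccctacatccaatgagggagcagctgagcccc

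The Hdc window lies at chr2:126618679-126618928 on the reverse strand and holds 1 word, and that of Slc18a2 at chr19:59260628-59260877 on the forward strand holds 2. The Alox5 window (chr6:116461179-116461428, reverse strand) holds 1. Tph1 has a pair of starts in RefSeq: the window of the distal one (chr7:46672538-46672787, reverse strand) holds 1 word and that of the proximal one (chr7:46667378-46667627) holds 0. The Cyp11a1 window (chr9:57997774-57998023, forward strand) holds 0. It ends before the annotated gene start of Cyp11a1 at 58006411, and also before that of the noncoding gene Gm17322 at 57998041. The window of the second Cyp11a1 start is not printed and holds 1. All 250 bases of that second window lie inside an annotated exon of Cyp11a1. Of the 8 members with a RefSeq promoter entry, 5 had a word in at least 1 window, and Hpgds, Ltc4s and Ptgs1 had none. In the Hpgds window 178 bases, and in the Ltc4s window 84, lay inside an annotated exon of the same gene. Tph1 and Cyp11a1 had more than 1 window each, and no share per gene was counted over all promoters. Whether words go with the change in level was not tested. Alox5ap and Alox15 had no entry. Counted by window, 5 of the 10 member windows held a word, against 26.5% of all 32851 promoter windows of this length. A word is a description of these letters and does not show a bound site.

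The libraries held 53789568 to 67854631 expected counts, and 15432 genes were tested. Levels are counts scaled to library size (CPM) on the scale of edgeR's trimmed mean of M values, and 3 counts correspond to 0.0424 to 0.0600 CPM. Gata2 was at 886, 887 and 737 CPM in Gata2+/+ replicates 3, 5 and 6 and at 498, 273 and 264 CPM in Gata2+/f replicates 7, 9 and 11. Kit, the receptor used for the sort, ranged from 826 to 1466 CPM in Gata2+/+ and from 175 to 328 CPM in Gata2+/f.

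Markers of the cell types in the sorted marrow differed between the groups as well. The 12 mast cell markers summed to between 11454 and 13963 CPM in Gata2+/+ and between 1209 and 4962 CPM in Gata2+/f. All 10 of them that were tested were lower, with a median log2 fold change of −2.63, and the most abundant were Cpa3, the mast cell carboxypeptidase (3186 ± 755 against 567 ± 769 CPM), and Cma1, a chymase (2776 ± 554 against 66.1 ± 55.8 CPM); means are given ± SD with n = 3 throughout. The mast cell markers Mrgprb1 and Tpsab1 had too few counts to be tested and had 0 counts in all Gata2+/f libraries. In Gata2+/+ replicates 3, 5 and 6 Mrgprb1 had 0, 1 and 3 counts and Tpsab1 had 4, 15 and 16. The 5 basophil markers summed to 96.6 to 193 CPM against 15.7 to 76.8 CPM, with 4 of 5 lower. Il4 (62.1 ± 9.35 against 17.4 ± 12.5 CPM) and Il13 lay lower without overlap. Prss34 lay higher without overlap at low levels (0.481 ± 0.296 against 3.55 ± 3.60 CPM). Mcpt8 (33.8 ± 24.0 against 18.1 ± 20.5 CPM) and Cd200r3 overlapped between the groups. Neutrophil markers summed to 152 to 444 against 4003 to 8007 CPM, with 11 of 11 higher. The 10 monocyte and macrophage markers were all higher, at 309 to 949 against 973 to 2397 CPM. The 9 eosinophil markers summed to 130 to 182 against 58.9 to 94.2 CPM, with 3 of 7 tested lower and 4 higher. Siglecf, a lectin, made up most of the sum in Gata2+/+ (139 ± 42.0 against 29.8 ± 23.0 CPM). The granule genes Prg2 (2.35 ± 0.270 against 15.7 ± 2.38 CPM), Epx (log2 fold change 4.05, at 2.15 CPM or less in every library) and Prg3, chosen after their values were seen, lay higher in Gata2+/f without overlap. The 12 megakaryocyte and platelet markers summed to 594 to 822 against 56.6 to 250.5 CPM, with 6 of 10 tested lower, of which Itga2b (589 ± 82.4 against 74.7 ± 47.3 CPM) was the one without overlap, and Gp6 at 0 in all 6 libraries. Of the tested markers of dendritic cells 5 of 5 were higher, of B cells 5 of 5, of T and NK cells 3 of 3, of erythroid cells 5 of 8, and of stroma and endothelium 1 of 3. The part of these shifts in the values of the mediator genes was not tested. In such bulk samples fewer cells of a type and less RNA per cell cannot be told apart.

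Of the 10 mediator genes, 9 had 18 or more counts in every library and were tested. Relative to Gata2+/+, 7 of these 9 were lower in Gata2+/f and 2 were higher. Their median log2 fold change was −1.22. Over all tested genes the median was 0.019 and 48.9% were lower. The median of the 9 rested in part on Gata2+/f replicate 7, without which it was −0.71. With edgeR's quasi-likelihood test and Benjamini-Hochberg adjustment, 0 of 9 members reached an adjusted p below 0.05, and so did 0% of all tested genes. At a limit of 0.1 it was 1 member, Hdc, against 2.88% of all tested genes. At an unadjusted p under 0.05 there were 3 members lower and 0 higher, against 11.5% and 11.1% of all tested genes. The 3 were Hdc, Tph1 and Cyp11a1. DESeq2's Wald test, which called 5.7% of all tested genes lower and 6.16% higher at an adjusted p under 0.05, called 2 members lower, Hdc and Cyp11a1, and 0 higher. The newer form of edgeR's test and limma voom called 0 members, where they called 0.207% and 0.0583% of all tested genes. For 5 members (Hdc, Slc18a2, Tph1, Alox5 and Cyp11a1) each Gata2+/f library lay below every Gata2+/+ library, a pattern seen in 16.6% of all tested genes. For 0 members did each lie above, against 13.1%, and in either direction the groups were apart in 29.7% of all tested genes.

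**Figure D1:**
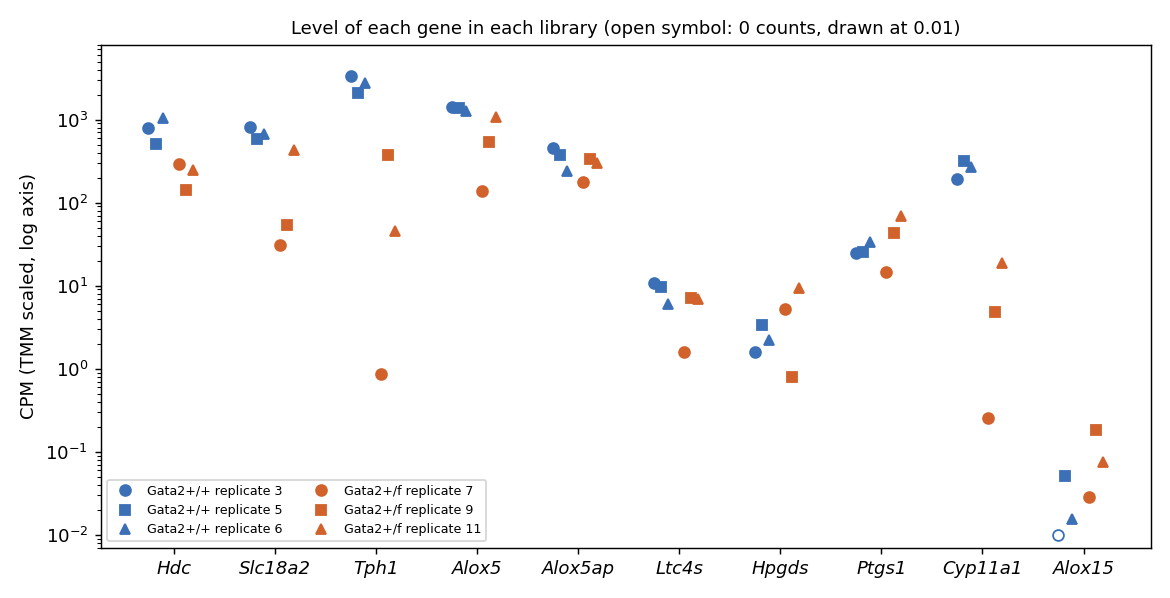
Level of each of the 10 mediator genes (x axis) in each of the 6 libraries, in CPM on a log axis; blue symbols are Gata2+/+ and orange symbols Gata2+/f, with 1 point per mouse. Hdc, Slc18a2, Tph1, Alox5 and Cyp11a1 show no overlap between the groups, and the Tph1 points of Gata2+/f run from 0.863 to 372 CPM.

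**Figure D2:**
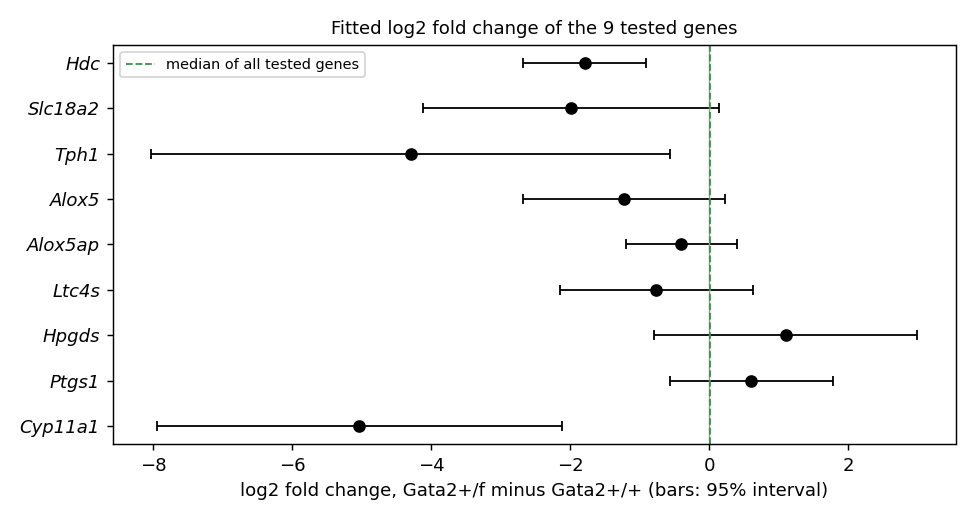
Fitted log2 fold change (x axis) of the 9 tested mediator genes (y axis) with its 95% interval from edgeR's quasi-likelihood fit; the dashed line is the median of all tested genes. The intervals of Hdc, Tph1 and Cyp11a1 lie below 0, and the other 6 contain it.

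The amine genes were lower in every Gata2+/f library, and each had its own order of the libraries. Hdc, on chromosome 2 (126593667 to 126619299, reverse strand, GRCm38), makes histamine. It was at 795, 514 and 1045 CPM in Gata2+/+ replicates 3, 5 and 6 and at 291, 141 and 249 CPM in Gata2+/f replicates 7, 9 and 11. Its lowest Gata2+/+ library, replicate 5, was above its highest Gata2+/f library, replicate 7. The means were 785 ± 266 and 227 ± 77.1 CPM, a log2 fold change of −1.79 (SE 0.38, 95% interval −2.68 to −0.90), so that the fit placed Gata2+/f at 28.9% of Gata2+/+. The adjusted p was 0.0966 in edgeR's quasi-likelihood test and 0.00136 in DESeq2's.

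Slc18a2, the vesicular transporter of histamine and serotonin (chromosome 19, 59260896 to 59296012, forward strand), was at 804, 587 and 673 CPM in Gata2+/+ and at 30.8, 53.2 and 436 CPM in Gata2+/f. Gata2+/f replicate 11 thus held 63.3% of the Gata2+/+ mean, against 4.48% and 7.73% in replicates 7 and 9. For Slc18a2 the fitted log2 fold change was −1.99 (SE 0.91, interval −4.12 to 0.14; edgeR adjusted p = 0.244). It was −4.00 without Gata2+/f replicate 11, where Slc18a2 passed the edgeR test (adjusted p = 0.0255). An antisense gene, Gm29261, overlaps an exon of Slc18a2 and had 26 counts over the 6 libraries.

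Tph1, tryptophan hydroxylase, performs the first step from tryptophan to serotonin outside neurons (chromosome 7, 46644641 to 46672537, reverse strand). It was one of the strongly expressed members in Gata2+/+, at 3359, 2105 and 2732 CPM. In Gata2+/f it was at 0.863, 372 and 45.8 CPM. Replicate 7 had 61 counts, where the Gata2+/+ libraries had 123664 to 175406. As shares of the Gata2+/+ mean these levels were 0.0316%, 13.6% and 1.68% in replicates 7, 9 and 11. The spread within Gata2+/f was so wide that the log2 fold change of −4.29 had an SE of 1.60 (interval −8.03 to −0.55; edgeR adjusted p = 0.185). Leaving out 1 library gave values from −6.81 (no Gata2+/f replicate 9) to −3.67 (no Gata2+/f replicate 7).

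Of the 3 leukotriene genes, none of which passed a test, the groups were apart for Alox5 and overlapped for Alox5ap and Ltc4s. Alox5, the 5-lipoxygenase, lies on chromosome 6 (116410077 to 116461178, reverse strand), the chromosome of Gata2. It was at 1423, 1383 and 1267 CPM in Gata2+/+ and at 140, 541 and 1066 CPM in Gata2+/f. The Gata2+/+ libraries lay close together, while Gata2+/f replicate 11 approached them at 78.5% of their mean and replicate 7 was at 10.3%. This gave a log2 fold change of −1.22 (SE 0.62, interval −2.67 to 0.23; edgeR adjusted p = 0.281). Without Gata2+/f replicate 11 it was −1.96, and −0.71 when replicate 7 was left out.

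Alox5ap, the membrane protein that presents arachidonic acid to 5-lipoxygenase (chromosome 5), overlapped between the groups. Its levels were 461, 378 and 238 CPM in Gata2+/+ and 179, 337 and 299.5 CPM in Gata2+/f. Fitted to these values, Alox5ap differed by −0.40 on the log2 scale (SE 0.34, interval −1.20 to 0.40; edgeR adjusted p = 0.503), and by −0.13 without Gata2+/f replicate 7 or −0.14 without Gata2+/+ replicate 3. Ltc4s, which makes leukotriene C4 (chromosome 11), was at 10.8, 9.55 and 6.01 CPM in Gata2+/+ and 1.57, 7.10 and 6.86 CPM in Gata2+/f. Gata2+/f replicate 7 was low for both genes, and the other Gata2+/f libraries lay within the Gata2+/+ range. The log2 fold change of Ltc4s was −0.76 (SE 0.60, interval −2.15 to 0.63; edgeR adjusted p = 0.465), and −0.29 without Gata2+/f replicate 7. Gm26542, an antisense gene whose exons overlap Ltc4s, had 545 counts over the 6 libraries, and without a stated strand setting the reads of the pair cannot be told apart.

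Prostaglandin genes were the 2 tested members with higher means in Gata2+/f, and their groups overlapped. Ptgs1, the constitutive cyclooxygenase (chromosome 2), was at 24.5, 25.1 and 33.3 CPM in Gata2+/+ and at 14.7, 43.6 and 68.4 CPM in Gata2+/f. Gata2+/f replicate 7 lay below and replicates 9 and 11 above all Gata2+/+ libraries. Ptgs1 had a log2 fold change of 0.61 (SE 0.50, interval −0.56 to 1.78; edgeR adjusted p = 0.486), with 0.11 when Gata2+/f replicate 11 was left out and 1.07 when replicate 7 was. Hpgds, which makes prostaglandin D2 (chromosome 6), was weakly expressed: 1.60, 3.39 and 2.20 CPM in Gata2+/+ and 5.18, 0.785 and 9.49 CPM in Gata2+/f. Here Gata2+/f replicate 9 was the lowest and replicates 7 and 11 the highest of the 6 libraries. Hpgds had a log2 fold change of 1.10 (SE 0.81, interval −0.79 to 2.99; edgeR adjusted p = 0.435), with 0.36 when Gata2+/f replicate 11 was left out and 1.66 when replicate 9 was.

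Cyp11a1, the mitochondrial side-chain cleavage enzyme that makes pregnenolone from cholesterol, had the lowest fitted fold change of the 9 tested members. It lies on chromosome 9 (58006411 to 58027023, forward strand). It was at 192, 321 and 268 CPM in Gata2+/+ and at 0.255, 4.78 and 18.8 CPM in Gata2+/f. In counts these were 9605, 18844 and 17191 against 18, 286 and 1256. The highest Gata2+/f library, replicate 11, held 7.22% of the Gata2+/+ mean, and replicate 7 held 0.0979%. Its log2 fold change was −5.03 (SE 1.25, interval −7.95 to −2.12), with an adjusted p of 0.110 in edgeR's quasi-likelihood test and 7.07e-05 in DESeq2's. Leaving out 1 library gave values from −6.67 (no Gata2+/f replicate 11) to −4.42 (no Gata2+/f replicate 7). A long noncoding gene on the same strand, Gm17322, shares exon bases with Cyp11a1 and had 151 counts over the 6 libraries.

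Alox15, the arachidonate lipoxygenase known from eosinophils and macrophages (chromosome 11), was not tested for lack of counts. It had 0, 3 and 1 counts in Gata2+/+ replicates 3, 5 and 6 and 2, 11 and 5 counts in Gata2+/f replicates 7, 9 and 11. At this depth 3 of these 6 libraries were under 3 counts, and no fold is given.

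The Gata2+/f libraries did not rank alike for these genes. Replicate 7 was the lowest and replicate 11 the highest for Slc18a2, Alox5 and Cyp11a1, and also for Ptgs1, whose mean was higher in Gata2+/f. The mast cell markers had no common order either: Cpa3, Fcer1a and Cma1 had the one just given, while Kit, Il1rl1, Slc45a3 and Ms4a2 were lowest in replicate 9 and highest in replicate 11. Fcer1a, the ligand-binding chain of the IgE receptor, was at 4.03, 100.5 and 771 CPM in Gata2+/f replicates 7, 9 and 11, against 1586 to 2234 CPM in Gata2+/+. For Tph1 replicate 7 was also the lowest but replicate 9 the highest. Hdc ran differently: replicate 9 was its lowest library and replicate 7 its highest. Replicate 7 was also the Gata2+/f library with the most Gata2. Each of these rankings rests on 1 library per position and was not tested.

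**Figure D3:**
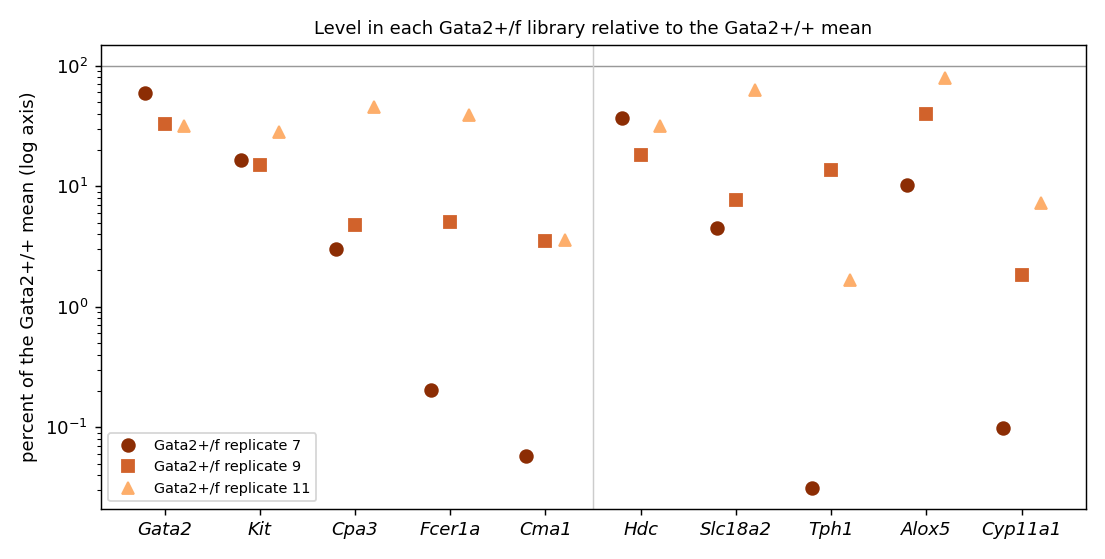
Level in each Gata2+/f library as a percent of the Gata2+/+ mean (log axis; the grey line marks 100%) for Gata2, Kit and the mast cell markers Cpa3, Fcer1a and Cma1 on the left and the 5 non-overlapping mediator genes on the right. Hdc stayed between 18.0% and 37.1% in all 3 libraries, while Tph1 ran from 0.0316% to 13.6%. Other mast cell markers are not drawn, some further down, such as Mcpt4 (0.0609% to 0.708%), and some nearer to 100%, such as Ms4a2 (36.7% to 102%).

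Per length of annotated exon, Tph1, Alox5 and Alox5ap had the highest mean levels in Gata2+/+, at 443 ± 102, 331 ± 19.8 and 253 ± 79.4 CPM per kilobase. Among these 3, neighbours in the order overlapped in their library ranges. Slc18a2 (132 ± 20.9) and Hdc (123 ± 41.6 CPM per kilobase) followed and overlapped with each other, and then Cyp11a1 (54.2 ± 13.5). Ltc4s (8.65 ± 2.43) and Ptgs1 (7.12 ± 1.27 CPM per kilobase) also overlapped, and Hpgds (0.373 ± 0.142) lay below them. In Gata2+/f the order of the means was Alox5ap (191 ± 58.3), Alox5 (142 ± 113), Hdc (35.5 ± 12.1), Slc18a2 (33.1 ± 43.5) and Tph1 (22.6 ± 32.8 CPM per kilobase). Ptgs1 (10.9 ± 6.93), Ltc4s (5.11 ± 3.08), Cyp11a1 (1.65 ± 2.01) and Hpgds (0.802 ± 0.677 CPM per kilobase) came after them. Each of these 9 overlapped with its neighbours in that order. Alox15 was last in both groups.

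Profiles over the 6 libraries were compared by the root mean square difference of log2 CPM, each gene taken relative to its own mean. Among members, Alox5 and Ltc4s were the closest pair (0.50), followed by Alox5ap and Ltc4s (0.53), while Hpgds and Tph1 were the farthest apart (4.95). Hdc was 1.32 from its transporter Slc18a2 and 3.77 from Tph1, and nearer to Alox5ap (1.04), Alox5 (1.08) and Ltc4s (1.15). The measure also grows with the range of a gene over the libraries, which was 1.37 log2 units for Alox5ap and 11.9 for Tph1. Among 11243 other tested genes whose mean log2 CPM was at least 1, the nearest to Hdc were Edem3, a mannosidase-like gene of glycoprotein degradation (0.098), the zinc finger gene Zfp24 (0.115) and Ahdc1 (0.158). Edem3 was at 303, 193 and 470 CPM in Gata2+/+ and 106, 54.2 and 94.5 CPM in Gata2+/f. With so many genes and 6 libraries, a near profile is a description of these values alone.

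Genes that act around the members showed no single direction. None of the 62 tested genes in the 7 pathway lists passed edgeR's adjusted p under 0.05, or that of its newer form or of limma voom. At an unadjusted p below 0.05 there were 9 lower (14.5%) and 10 higher (16.1%), where the shares over all tested genes were 11.5% and 11.1%. DESeq2 called 4 lower (6.45%) and 5 higher (8.06%), against 5.7% and 6.16% of all tested genes. In the histamine list of 8 genes 4 were tested, with 3 lower. Hrh2, the H2 histamine receptor, was at 32.0, 24.4 and 13.3 CPM in Gata2+/+ and 1.30, 2.19 and 4.86 CPM in Gata2+/f, without overlap. Its log2 fold change was −3.06 (SE 0.59), with an adjusted p of 0.0966 in edgeR's test and 2.84e-05 in DESeq2's. Hnmt, which inactivates histamine by methylation, lay on the other side without overlap, at 0.640, 1.31 and 0.654 against 2.11, 2.79 and 4.14 CPM (log2 fold change 1.79, SE 0.53; adjusted p = 0.136 in edgeR's test and 0.00840 in DESeq2's). The log2 ratio of Hdc to Hnmt counts was 9.83 ± 1.08 in Gata2+/+ and 6.22 ± 0.77 in Gata2+/f, a difference of −3.61 without overlap of the groups (exact two-sided permutation p = 0.1, the smallest that 3 against 3 can give). Because Hdc lay lower and Hnmt higher without overlap, this separation and its p followed from the values of the single genes and add nothing to them. The H4 receptor gene Hrh4 (−1.57) and the organic cation transporter gene Slc22a3 (−0.27) overlapped between the groups. Hrh4 was at −1.03 without Gata2+/f replicate 7 and −2.80 without replicate 9, and Slc22a3 at −0.53 and 0.10.

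In the serotonin list 8 of 10 genes were tested, 4 lower and 4 higher. Gch1, the first enzyme of the tetrahydrobiopterin cofactor that Tph1 needs, was at 37.9, 19.3 and 11.2 CPM in Gata2+/+ and 3.37, 3.21 and 14.4 CPM in the Gata2+/f libraries (log2 fold change −1.70, SE 0.72; edgeR adjusted p = 0.217), with −1.08 when Gata2+/+ replicate 3 was left out and −2.75 when Gata2+/f replicate 11 was. Ddc, the decarboxylase of the last step to serotonin, was at 4.42, 3.23 and 0.452 CPM in Gata2+/+ and 0.0283, 45.6 and 1.88 CPM in Gata2+/f. Its highest value was in Gata2+/f replicate 9, the Gata2+/f library with the most Tph1, and its lowest in replicate 7, the one with the least. Its log2 fold change of 2.55 (SE 1.83) turned to −1.45 without that replicate 9 and to −0.42 in limma voom. The monoamine oxidase genes Maob (−2.25) and Maoa (0.97) overlapped between the groups. Leaving out Gata2+/+ replicate 3 gave −0.54 for Maob, and leaving out Gata2+/f replicate 11 gave −3.65. For Maoa the value was 0.22 with Gata2+/f replicate 9 left out and 1.57 with Gata2+/+ replicate 5 left out.

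Leukotriene A4 can leave the route to leukotriene C4 through Lta4h, the hydrolase that makes leukotriene B4. Lta4h was at 124, 163 and 141 CPM in Gata2+/+ and 180, 317 and 212 CPM in the Gata2+/f libraries, without overlap (log2 fold change 0.73, SE 0.27; edgeR adjusted p = 0.183). The log2 ratio of Ltc4s to Lta4h counts was −4.06 ± 0.51 in Gata2+/+ and −5.75 ± 0.97 in Gata2+/f, a difference of −1.70 without overlap (exact two-sided permutation p = 0.1, again the smallest possible). The difference was −1.16 without Gata2+/f replicate 7 and −2.10 without replicate 11. The limit given above for Ltc4s and the antisense gene Gm26542 holds for this ratio as well. Of the 13 tested genes of 16 in the list of leukotriene conversion, export, breakdown and receptors, 11 were higher and the median log2 fold change was 1.23. At an unadjusted p below 0.05 5 of the 13 were higher and 1 lower, against 11.1% and 11.5% of all tested genes. DESeq2 called 2 higher, Ptgr1 and Mgst2, and 0 lower, against 6.16% and 5.7%. Ptgr1, a reductase that inactivates leukotriene B4, was at 11.2 ± 5.81 and 37.1 ± 16.2 CPM (log2 fold change 1.73; DESeq2 adjusted p = 0.0150). Mgst2, a microsomal glutathione transferase that can also make leukotriene C4, was at 4.40 ± 2.32 and 15.6 ± 8.86 CPM (1.82; DESeq2 adjusted p = 0.0278). Cysltr2, a receptor of cysteinyl leukotrienes, was at 1.06 CPM or less in every library. The monocyte and neutrophil markers given above were higher in the same libraries, and their part was not tested.

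**Figure D4:**
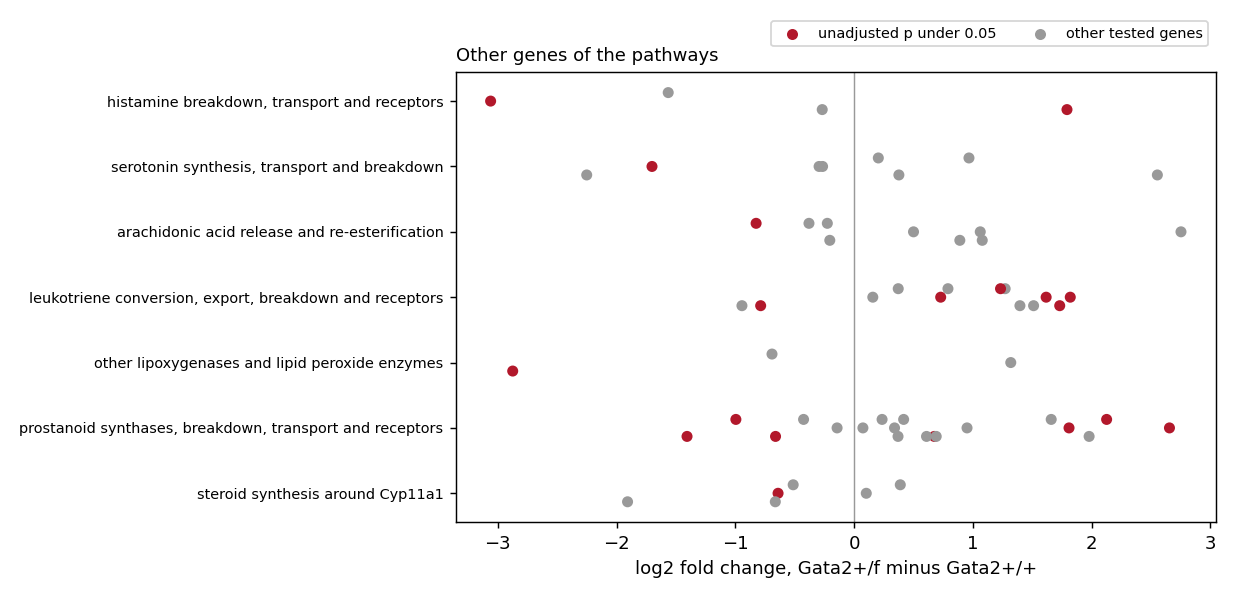
Log2 fold change (x axis) of each tested gene in the 7 lists of other pathway genes (y axis); red points had an unadjusted p below 0.05 by edgeR's quasi-likelihood fit, and points are offset vertically for legibility. In the leukotriene list 11 of 13 genes lie above 0, and the prostanoid list spreads from −1.41 to 2.66.

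Of 12 genes of arachidonic acid release and re-esterification 9 were tested, 4 lower and 5 higher. At an unadjusted p below 0.05 there were 1 lower, Mboat7, and 0 higher, against 11.5% and 11.1% of all tested genes. Pla2g4a, the cytosolic phospholipase that releases arachidonic acid (chosen after its values were seen), was at 34.0, 39.6 and 33.7 CPM in Gata2+/+ and 39.4, 11.9 and 40.4 CPM in Gata2+/f. Mboat7, which returns arachidonic acid to phosphatidylinositol, was lower without overlap (104 ± 9.76 against 58.6 ± 11.7 CPM; log2 fold change −0.83, SE 0.23; adjusted p = 0.126 in edgeR's test and 0.0414 in DESeq2's). Pla2g4c (2.75), Lpcat3 (0.50) and Pla2g12a (0.89) were the next by p and overlapped. Without Gata2+/f replicate 7 the log2 fold change of Pla2g4c was 0.47 and that of Pla2g12a 0.49, and without Gata2+/+ replicate 6 that of Pla2g4c was 4.20. In the list of other lipoxygenases and lipid peroxide enzymes 3 of 7 genes were tested, and the lipoxygenase gene Alox8 was lower without overlap at low levels (2.01 ± 1.10 against 0.274 ± 0.205 CPM; log2 fold change −2.87, SE 0.89; adjusted p = 0.144 in edgeR's test and 0.0129 in DESeq2's). Gpx4, the glutathione peroxidase of membrane lipids (−0.69), and Ephx2 (1.32) overlapped. Without Gata2+/f replicate 9 they were at −1.04 and 0.22, and Gpx4 was at −0.43 without replicate 7. Alox12b had 0 counts in all 6 libraries.

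Receptors and synthases of prostanoids went both ways. Of 23 genes 19 were tested, 5 lower and 14 higher, and at an unadjusted p below 0.05 the counts were 3 lower and 4 higher, against 11.5% and 11.1% of all tested genes. Ptger2, a prostaglandin E2 receptor, was at 0.340, 0.613 and 0.483 CPM in Gata2+/+ and 1.84, 2.24 and 5.01 CPM in the Gata2+/f libraries (log2 fold change 2.66, SE 0.58; adjusted p = 0.0966 in edgeR's test and 0.000246 in DESeq2's). The more abundant receptor genes Ptger1 and Ptger4 lay lower without overlap. Ptger1 was at 110 ± 5.63 and 69.4 ± 5.29 CPM (−0.66, SE 0.19; adjusted p = 0.129 in edgeR's test and 0.0322 in DESeq2's), and Ptger4 at 52.0 ± 31.3 and 19.6 ± 6.90 CPM (−1.41, SE 0.47; edgeR adjusted p = 0.161), with −0.75 when Gata2+/+ replicate 3 was left out. Ptges, a prostaglandin E synthase, was weakly expressed at 0.372 ± 0.165 and 1.31 ± 0.600 CPM (1.81; DESeq2 adjusted p = 0.0388). Ptgfr and Ptgis had 0 counts in all 6 libraries.

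Of 12 genes around Cyp11a1 in steroid synthesis 6 were tested, 4 lower and 2 higher. Fdx1, the ferredoxin that hands electrons to Cyp11a1, was at 16.3, 20.8 and 17.2 CPM in Gata2+/+ and 11.4, 12.8 and 10.6 CPM in the Gata2+/f libraries (log2 fold change −0.64, SE 0.27; edgeR adjusted p = 0.220). Fdxr, its reductase, lay higher by 0.39 (20.1 to 26.6 against 27.4 to 32.7 CPM), and Star, which moves cholesterol to the enzyme, had a log2 fold change of −0.66 with overlapping groups (−0.32 without Gata2+/+ replicate 6). Cyp21a1, a later enzyme of the route, was at 0.311 CPM or less in every library. The next enzyme after Cyp11a1, encoded by Hsd3b1 and Hsd3b6, had 0 counts in all 6 libraries, and Hsd3b2 had 2 counts in all.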

How the data were processed

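The deposited table, per the submitters' processing notes, was made with CASAVA 1.8.2, STAR 2.5.4a and RSEM 1.3.0 on GRCm38; libraries were poly-A selected and stranded, per the labels' protocols. Its values are RSEM expected counts per Ensembl gene as deposited by the authors, without normalization; 11.7% were not whole. Annotation release and strand setting are not given in the sources used here. GENCODE M21 gave symbols and positions for 97.3% of IDs.

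Expected counts were rounded. Genes were kept by filterByExpr (minimum count 10) and tested with edgeR 4.0.16 in R 4.3.3 (glmQLFit and glmQLFTest, TMM factors 0.821 to 1.11, no covariate, two-sided, Benjamini-Hochberg over 15432 genes). DESeq2 1.42.0, limma 3.58.1 (voom), the newer edgeR form, other scalings and filters and leaving out each library were alternatives. Scripts were tested on simulated data. Ratios used a pseudocount of 0.5 counts. Intervals are at 95%. P-values of edgeR, DESeq2 and voom set the group difference against the spread between 3 mice per group, estimated with information shared across genes.

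The members and lists were chosen with earlier results of these data known. Named are all members, Gata2 and Kit, up to 4 pathway genes per list with the smallest p, markers at 0, and the 3 genes nearest to Hdc. The most abundant markers are named only for the mast cell, eosinophil, and megakaryocyte and platelet lists. Some genes were named outside this rule, among them the basophil markers and the mast cell markers Fcer1a, Il1rl1, Slc45a3 and Ms4a2. For the other marker lists only counts or sums are given. Promoter sequences are from RefSeq (GRCm38.p6).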

Additional observations from a re-analysis of the deposited data

How the results depend on the processing

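All 9 tested members kept the sign of their log2 fold change under all 13 alternatives (other scalings, filters and tests, and leaving out each library). The 0 members past the threshold became 2 with DESeq2 (Hdc and Cyp11a1) and 1 at an adjusted p under 0.1 (Hdc); leaving out single libraries gave 0 to 1 (Slc18a2, without Gata2+/f replicate 11). Over all genes the 0 calls became 1829 with DESeq2 (950 higher, 879 lower), 32 with the newer edgeR test, 9 with limma voom, 19 with no filter beyond 1 count, 444 at an adjusted p under 0.1, and 0 to 66 without single libraries, the most without Gata2+/f replicate 11. The cause of these differences was not tested. Upper quartile scaling moved the median of all genes to 0.11 and the median of the members to −1.10. The median of the members was −0.96 with no filter beyond 1 count, where all 10 were fitted, and −1.65 in limma voom. Leaving out single libraries gave −1.81 (no Gata2+/f replicate 11) to −0.71 (no Gata2+/f replicate 7). The count of members without overlap was 5 in the full data, all lower. It was 5 to 7 without single libraries, which leaves fewer values to overlap. Without Gata2+/f replicate 7, and likewise without replicate 9, 1 of the 6 was higher. The share over all genes was not counted in these settings. Applied after the data were seen to 29 other named genes, the alternatives kept the sign of 27; leaving out single libraries took Slc22a3 from −0.53 to 0.10 and Ddc from −1.45 to 3.17, with the change of sign for both without Gata2+/f replicate 9, and Ddc was −0.42 in limma voom. No paired analysis was possible because the groups share no replicate numbers. Depth limits Alox15, with 4 counts in Gata2+/+ and 18 in Gata2+/f.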
